A study of Mus musculus with 12 samples.

Results

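The 9 genes described here encode the creatine kinases, the adenylate kinases and the proteins that make or import creatine. They were chosen by name: every probe whose platform symbol was Ckm, Ckb, Ckmt2, Ckmt1, Ak1, Ak3, Slc6a8, Gatm or Gamt was taken, which gave 13 of 45281 probes and 9 of 19057 annotated genes.

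Creatine kinase moves a phosphate between ATP and creatine. In muscle the phosphocreatine pool buffers ATP during contraction: a mitochondrial isoenzyme charges creatine close to where ATP is made, and a cytosolic isoenzyme recovers ATP at the myofibrils, in part bound to the M-band. Adenylate kinases interconvert adenine nucleotides, so that ADP can still be used and AMP reports the energy state. Muscle takes up most of its creatine from the blood through a transporter, while the synthesis from arginine and glycine by Gatm and then Gamt is best known from kidney and liver.

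RNA came from skeletal muscle of mice fasted overnight. The study compared 6 wild-type mice (WT) with 6 transgenic mice (TG) that overexpress the nuclear receptor Nur77 (gene Nr4a1) in skeletal muscle. RNA of 2 mice was combined per sample, so that each genotype had 3 pools, and each pool was applied to both of 2 Illumina chips, 1 array on each, which made 12 single-colour arrays. Strain, age, the number of transgenic lines and the promoter that drives the transgene are not given in the labels, and array titles begin with "Gastr", which no label spells out. The Nr4a1 probe was detected on 0 of 12 arrays, at signals of -16.2 to 8.2, so it did not check the genotype labels.

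Between 17607 and 19118 probes were detected per array, and myofibre markers (Acta1, Myh4, Myh1, Tnnt3, Actn3) were detected in every pool. The arrays of TG3 and 1 of the arrays of WT1 stood apart. Summed signals of the 4 macrophage markers on the array (Adgre1, Csf1r, Lyz2, Cd163) were 5704.9 and 5893.6 for the chip 1 and chip 2 arrays of TG3. For WT1 they were 668.6 on chip 1 and 4453.3 on chip 2, although both arrays are labelled as the same pool. The other 9 arrays lay between 507.6 and 1383.4. Over pools the sums were 2561, 810.7 and 795.1 in WT and 1229.6, 1349.65 and 5799 in TG, and 0 of the 4 genes passed the test of genotype (limma) in either direction. Among the markers of myoblasts and regenerating fibres, 1 of 3 tested genes passed. This was the perinatal myosin Myh8, with signals of 76.2, 80.8 and 115.5 in the WT pools and 4246, 6117 and 22842 in the TG pools. Myog (limma adjusted p = 0.0733) and Ncam1 (adjusted p = 0.223) did not pass and were highest in TG3, at 231.65 and 470.15, and Pax7 was undetected.

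Of the 13 probes, 10 passed the filter on dim signals, which asked for detection (p below 0.05) throughout the 6 arrays of either genotype. These 10 probes stood for 7 of the 9 genes, and each was detected on all 6 WT arrays, so none entered through TG alone. Both Ckmt1 probes and the Gatm probe were not kept. Genotypes were compared with limma on the 6 pool means after background correction, quantile normalisation and log2, and p-values were adjusted by Benjamini-Hochberg across the 15708 probes kept, with 0.05 as the threshold. Of the 10 probes 3 passed, all higher in TG: both bright probes of Ak3 and the probe of Gamt. Over all kept probes 25.8% passed, with 11.3% higher and 14.6% lower in TG, so this share is close to the background. The 3 TG pools lay all above or all below the 3 WT pools for 9 of the 10 probes, against 45.2% of all kept probes. With 3 pools a side, 0.1 is the smallest p an exact permutation test allows, and it gave 0.1 for each of these 9 probes. Where a bulk sample has a lower or higher signal, a change in the number of cells of a type and a change in RNA per cell cannot be told apart.

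**Figure D1:**
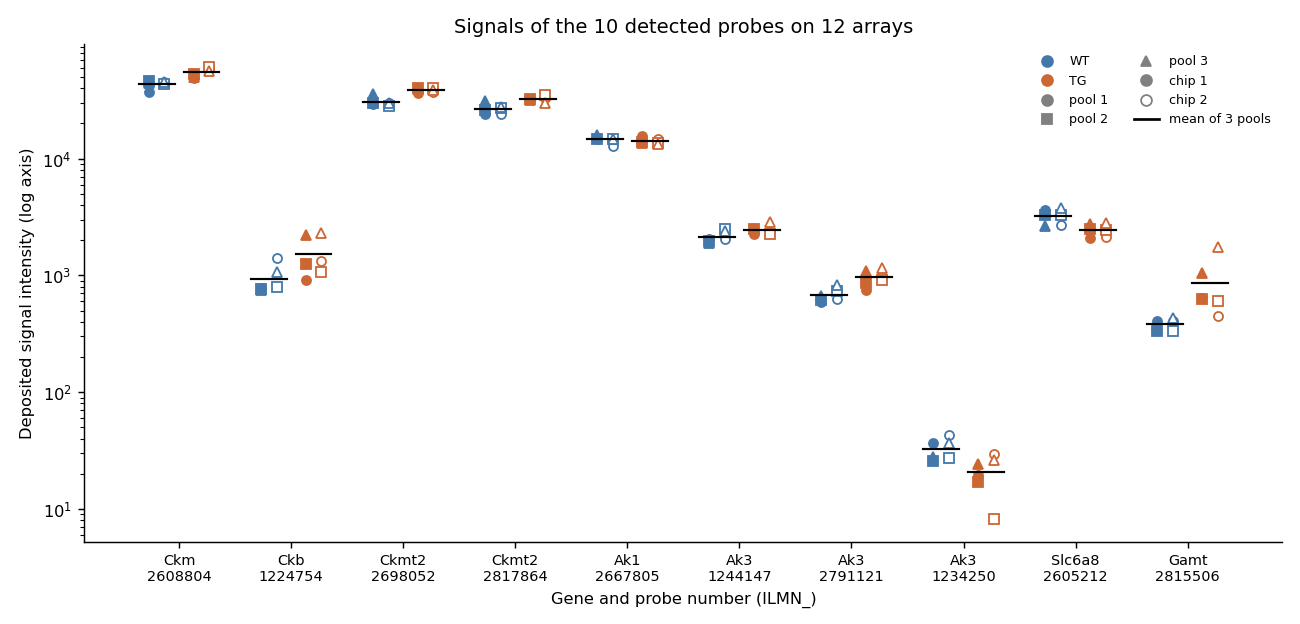
Deposited signal intensity (log axis) of the 10 kept probes on the 12 arrays. Colour marks genotype, shape the pool, fill the chip, and black lines are means of the 3 pools. Ckm and both Ckmt2 probes are the brightest on every array, and the Gamt and Ckb points of TG3 lie above those of the other pools.

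Ckm, the cytosolic muscle creatine kinase, was among the brightest probes of the array (ILMN_2608804). Its signal ranked between place 4 and place 35 on WT arrays and between place 1 and place 13 on TG arrays, and on 1 TG array it was the brightest probe. Mean signals over the 2 arrays were 41119, 45232 and 44791 in the WT pools and 54196, 57187 and 53414 in the TG pools. The TG pools were all higher, with a mean of 54932 ± 1991 (SD, n = 3 pools) against 43714 ± 2258, a ratio of 1.26 on the deposited scale. The top of that scale differed as well: the highest signal of an array was 40194 to 52136 in WT and 52778.5 to 65559 in TG. After quantile normalisation every array holds the same set of values, of which the highest was 15.68 (log2), and the WT mean of Ckm was 15.51. That left a probe this bright little room to be higher in TG. On this scale the difference was 0.11 ± 0.07 (log2, TG minus WT, ± SE), a fold of 1.08, with an adjusted p of 0.245 in limma. It did not pass.

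That difference depended on how the arrays were put on one scale. It was 0.24 with cyclic loess (limma adjusted p = 0.0327), 0.33 with scaling to the 75th percentile (adjusted p = 0.0263) and 0.33 with the equal array means of the deposited signals (adjusted p = 0.0134, an alternative added after the data were seen). In the authors' deposited table it was 0.35 (adjusted p = 0.113). The brightest signals of the arrays moved with it: the median difference of the 100 probes with the highest mean was -0.0036 under quantile normalisation, 0.09 under loess, 0.17 under the 75th percentile, 0.17 under equal means and 0.19 in the deposited table. Among those 100 probes Ckm held place 22 from the highest difference under quantile normalisation, place 15 under loess and place 13 under each of the other 3 scalings. The direction was the same in all of them, and whether it passed was not. Over all kept probes, the same choices gave 43.6% of calls as higher under quantile normalisation, 51.1% under loess, 33.5% under the 75th percentile, 29.9% under equal means and 39.1% in the deposited table, while the median of all probes moved by less than 0.1. Of 20 alternatives, Ckm did not pass in 17. Whichever pool was left out, Ckm did not pass (limma adjusted p = 0.283 to 0.426), and without WT2 its difference was 0.14 (adjusted p = 0.283). On chip 1 alone the genotypes overlapped (adjusted p = 0.591), and on chip 2 alone Ckm did not pass either (adjusted p = 0.331).

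The promoter window of Ckm is shown as the 250 bases before its RefSeq start (GRCm38.p6, chr7:19410844-19411093, plus strand), because this gene is the classical target of the myogenic E-box. Capitals mark the E-box (CANNTG, both strands), of which the window held 1.
Ckm: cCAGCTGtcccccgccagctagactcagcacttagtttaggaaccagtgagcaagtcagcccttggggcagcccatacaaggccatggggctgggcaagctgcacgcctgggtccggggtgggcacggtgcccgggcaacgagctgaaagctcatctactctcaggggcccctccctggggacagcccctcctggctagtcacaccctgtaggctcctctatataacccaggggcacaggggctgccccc
E-boxes of this form were found in 66.2% of all 32851 RefSeq promoter windows of the same length, so a single match is common. The best characterised E-boxes of this gene lie in an enhancer outside such a window.

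Ckmt2, the sarcomeric mitochondrial creatine kinase that sits in the intermembrane space of muscle mitochondria, had 2 probes, and both were higher in every TG pool. Signals of ILMN_2698052 were 29670, 29009.5 and 32828 in the WT pools and 36829, 40097 and 39073 in the TG pools, a ratio of 1.27. Signals of ILMN_2817864 were 24058, 26584 and 29257 in the WT pools and 32810.4, 33749 and 30896 in the TG pools, a ratio of 1.22. The genotypes overlapped for neither probe. On the log2 scale the differences were 0.23 ± 0.08 (limma adjusted p = 0.0542) and 0.22 ± 0.08 (adjusted p = 0.0854), so neither passed, and the probes gave the same size. For ILMN_2698052 the difference was 0.29 under loess (adjusted p = 0.0307), 0.35 under the 75th percentile (adjusted p = 0.0185) and 0.34 under equal means (adjusted p = 0.0136), all past the threshold, and 0.37 in the authors' deposited table (adjusted p = 0.0855). The second probe passed under equal means (0.29, adjusted p = 0.0426). Of 20 alternatives, ILMN_2698052 did not pass in 16 and ILMN_2817864 did not pass in 18. Whichever pool was left out, neither passed (limma adjusted p = 0.0628 to 0.183 and 0.0581 to 0.214). On chip 1 or chip 2 alone neither passed.

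**Figure D2:**
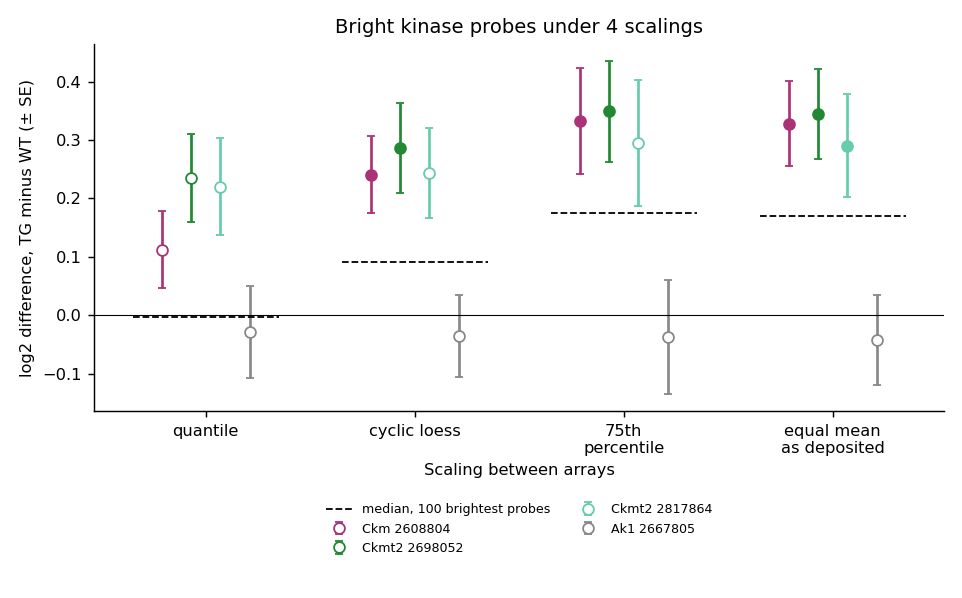
Log2 difference between TG and WT (± SE) of the Ckm probe, both Ckmt2 probes and the Ak1 probe under 4 ways of scaling the arrays. Filled points have an adjusted p below 0.05 and dashed lines are the median of the 100 brightest probes. Ckm moves from 0.11 under quantile normalisation to 0.33 under the 75th percentile while that median moves from -0.0036 to 0.17, and Ak1 stays near 0.

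The promoter window of Ckmt2 (GRCm38.p6, chr13:91876886-91877135, minus strand) is shown beside that of Ckm as the other sarcomeric kinase, with E-boxes in capitals.
Ckmt2: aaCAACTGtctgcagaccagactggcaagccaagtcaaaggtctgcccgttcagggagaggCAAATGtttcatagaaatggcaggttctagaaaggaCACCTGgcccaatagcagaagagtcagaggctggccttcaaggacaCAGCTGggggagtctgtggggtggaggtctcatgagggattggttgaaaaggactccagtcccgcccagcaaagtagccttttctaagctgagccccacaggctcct
It held 4 E-boxes, and at least 4 were found in 3.84% of all promoter windows. The NBRE, the octamer AAAGGTCA that Nur77 binds as a monomer, was found on neither strand of either window. It was found in 0 of the 12 windows of the 8 member genes in the RefSeq table, and in 1.34% (439) of all windows. Such a count describes the letters of 250 bases only. The window of Slc6a8 was not analysed here.

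Ckmt1, the ubiquitous mitochondrial creatine kinase of brain and other tissues, was not detected. Its probes ILMN_1217054 and ILMN_2773537 were above background on 0 of 12 arrays, with signals of -11.2 to 7.1 and of -8.1 to 10.0. The array therefore gave no level for this gene in either genotype, and no fold is given.

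Ckb, the brain-type cytosolic creatine kinase that is also made by immature muscle and many other cells, gave a dimmer signal (ILMN_1224754). Pool signals were 1100.25, 785 and 913.2 in WT and 1121, 1164 and 2268 in TG. The TG pools were all higher, but TG1 exceeded WT1 by little and TG3 stood far above the rest. The difference was 0.72 ± 0.23, a fold of 1.64, with a limma adjusted p of 0.0548, which did not pass.

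Both arrays of TG3, which were highest in macrophage markers, were highest in Ckb as well, at 2211.6 and 2323.6. Within pool WT1 the Ckb signal was 784.8 on chip 1 and 1415.7 on chip 2. The chip 2 array of TG1 (1332.1) and the chip 1 array of TG2 (1263.3) were nearly as high, at marker sums of 1153.4 and 1315.9. The difference was 0.85 on chip 1, where the TG pools lay above the WT pools, and 0.58 on chip 2, where they overlapped. With WT1 taken from chip 1 only it was 0.85 (limma adjusted p = 0.0269). Without TG3 it was 0.42 (adjusted p = 0.0204), and without both the chip 2 array of WT1 and TG3, an alternative added after the data were seen, it was 0.55 (adjusted p = 0.00263). It passed without TG1 as well (0.88, adjusted p = 0.0387). It did not pass in 14 of 20 alternatives, among them the fits without WT1 (0.80, adjusted p = 0.0919), WT2 (0.62, 0.173), WT3 (0.72, 0.128) and TG2 (0.85, 0.0627) and chip 2 alone (adjusted p = 0.205). The direction was the same in each of these settings, and the size depended on TG3. Of the smooth muscle markers, 1 of 4 tested genes passed (Smtn, higher) and Cnn1 was undetected. Their signals summed to 4989.85 to 5373 in WT pools and to 5467, 6423 and 8055 in TG pools, again highest in TG3. Acta2 (5737.35 in TG3) and Smtn (2113.5) made up most of that sum and were highest in TG3. The markers did not agree, since Myh11 (177.7) and Tagln (30.1) in TG3 lay below every WT pool. The part of macrophages, smooth muscle or regenerating fibres in the Ckb signal was not tested.

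**Figure D3:**
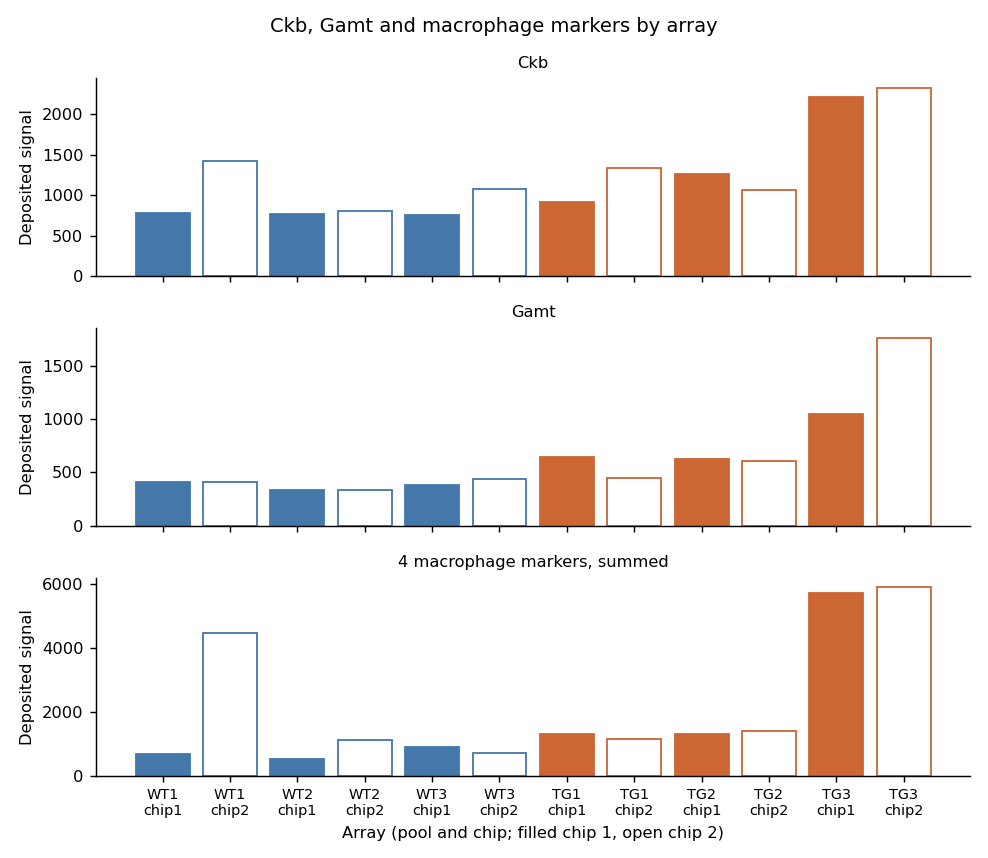
Deposited signals of Ckb (top), Gamt (middle) and the sum of 4 macrophage markers (bottom) on each of the 12 arrays. Filled bars are chip 1 and open bars chip 2. Both TG3 arrays are highest in all 3 panels, and the chip 2 array of WT1 is the highest WT array in Ckb (1415.7) and in the markers (4453.3) but not in Gamt (406.9).

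Ak1, the main cytosolic adenylate kinase of skeletal muscle, gave no difference that could be told from the spread between pools. Signals of ILMN_2667805 were 13734, 14748 and 15267 in the WT pools and 15116, 13793 and 13546 in the TG pools, and the genotypes overlapped. The difference was -0.03 ± 0.08 with a limma adjusted p of 0.814, and over 20 alternatives it lay between -0.077 and 0.015. Its sign turned without WT3, at 0.015. Under the 5 scalings named for Ckm it lay between -0.042 and -0.021.

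Ak3, the adenylate kinase of the mitochondrial matrix that uses GTP to phosphorylate AMP, rose on both of its bright probes. Signals of ILMN_2791121 were 606.95, 670.2 and 745.1 in the WT pools and 869.7, 888.2 and 1122.6 in the TG pools. Every TG pool was above every WT pool. The difference was 0.58 ± 0.11 with a limma adjusted p of 0.00932, and it passed in all 20 alternatives, at 0.47 to 0.66.

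The other bright Ak3 probe, ILMN_1244147, gave signals of 2045, 2224.5 and 2134 in the WT pools and 2289, 2374 and 2663 in the TG pools. These pools did not overlap either. The difference was 0.29 ± 0.08, a fold of 1.22, with a limma adjusted p of 0.0319. It did not pass in 13 of the 20 alternatives, which gave 0.19 to 0.36, and among them were the fits without WT1 (0.25, adjusted p = 0.0941), WT2 (0.32, 0.0698), WT3 (0.30, 0.0779), TG2 (0.30, 0.0741) and TG3 (0.24, 0.0514).

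The remaining Ak3 probe pointed the other way. ILMN_1234250, whose platform accession is that of a separate cDNA clone, was dim, with signals of 39.65, 26.7 and 32.4 in the WT pools and 24.45, 12.65 and 25.15 in the TG pools. It was detected on all 6 WT arrays and on 5 of the 6 TG arrays. The difference was -0.19 ± 0.08 with a limma adjusted p of 0.136, so it did not pass, and the 3 probes of the gene thus disagreed in sign.

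The Ak3 promoter window (GRCm38.p6, chr19:29047962-29048211, minus strand) and that of Gamt (GRCm38.p6, chr10:80261013-80261262, minus strand) are shown because these were the 2 member genes that passed. They held 0 E-boxes and 0 NBREs, so no letters are in capitals.
Ak3: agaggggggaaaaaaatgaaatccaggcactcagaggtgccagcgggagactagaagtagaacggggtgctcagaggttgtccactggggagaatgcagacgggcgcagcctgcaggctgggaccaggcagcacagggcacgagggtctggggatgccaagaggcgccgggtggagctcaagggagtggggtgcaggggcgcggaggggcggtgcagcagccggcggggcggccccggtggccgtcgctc
Gamt: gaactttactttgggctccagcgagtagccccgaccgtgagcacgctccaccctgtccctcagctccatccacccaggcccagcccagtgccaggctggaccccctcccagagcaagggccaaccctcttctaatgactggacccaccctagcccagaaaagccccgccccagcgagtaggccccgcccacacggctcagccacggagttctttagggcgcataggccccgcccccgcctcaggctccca
The windows of Ckb and Ckmt1 held 0 E-boxes as well, that of Gatm held 1, and those of Ak1 held 1 to 3.

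Gamt, which methylates guanidinoacetate in the last step of creatine synthesis, had the largest difference of the 10 kept probes. Signals of ILMN_2815506 were 406.9, 334.45 and 408.25 in the WT pools and 548.05, 618.15 and 1403 in the TG pools. The WT pools lay close together, TG1 and TG2 were moderately higher, and TG3 was far above. The difference was 1.01 ± 0.27, a fold of 2.01, with a limma adjusted p of 0.03.

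Its size rested on TG3, where the arrays gave 1043.7 and 1762.4, and its direction did not. Without TG3 the difference was 0.65 (limma adjusted p = 0.00176), and without TG3 and the chip 2 array of WT1 it was 0.64 (adjusted p = 0.00153). Without WT1, WT2 or WT3 it was 1.02, 0.94 and 1.07 and did not pass (adjusted p = 0.0822, 0.106 and 0.0722). The chip 2 array of WT1, whose macrophage markers were 6.66 times those of chip 1, had the same Gamt signal as chip 1, 406.9, whereas Ckb was higher there. That is 1 array, and the part of macrophages or other cells in the Gamt signal was not tested. By chip the difference was 0.95 on chip 1 and 1.07 on chip 2, and on either chip all TG pools lay above all WT pools. On chip 2 alone it did not pass (adjusted p = 0.127), nor with signals floored at 10 (1.13, adjusted p = 0.0508).

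Gatm, the amidinotransferase that makes guanidinoacetate from arginine and glycine, was near background. Its probe ILMN_2736337 was detected on 0 of 6 WT arrays and on 1 of 6 TG arrays, at signals of -11.9 to 15.0. No level was obtained for the first step of synthesis, and no fold is given.

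Slc6a8, the sodium- and chloride-dependent transporter that brings creatine into the fibre, was the bright member whose TG pools all lay below the WT pools. Signals of ILMN_2605212 were 3181, 3287 and 3213 in the WT pools and 2126, 2471 and 2789 in the TG pools. The WT pools were nearly equal and every TG pool was below them, at a ratio of 0.763. The difference was -0.28 ± 0.10, a fold of 0.822, with a limma adjusted p of 0.0666, which did not pass. It was -0.37 under the 75th percentile (adjusted p = 0.0171), -0.37 without TG3 (adjusted p = 0.0142), -0.35 with WT1 from chip 1 only (adjusted p = 0.0375) and -0.38 under equal means (adjusted p = 0.0275). Under loess it was -0.26 (adjusted p = 0.101) and in the authors' deposited table -0.36 (adjusted p = 0.0692). The fall did not pass in 15 of 20 alternatives. Among these were the fits without WT1 (limma adjusted p = 0.114), WT2 (0.186), WT3 (0.153), TG1 (0.162) or TG2 (0.129). On each chip alone the genotypes overlapped, with a limma adjusted p of 0.161 on chip 1 and 0.275 on chip 2.

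**Figure D4:**
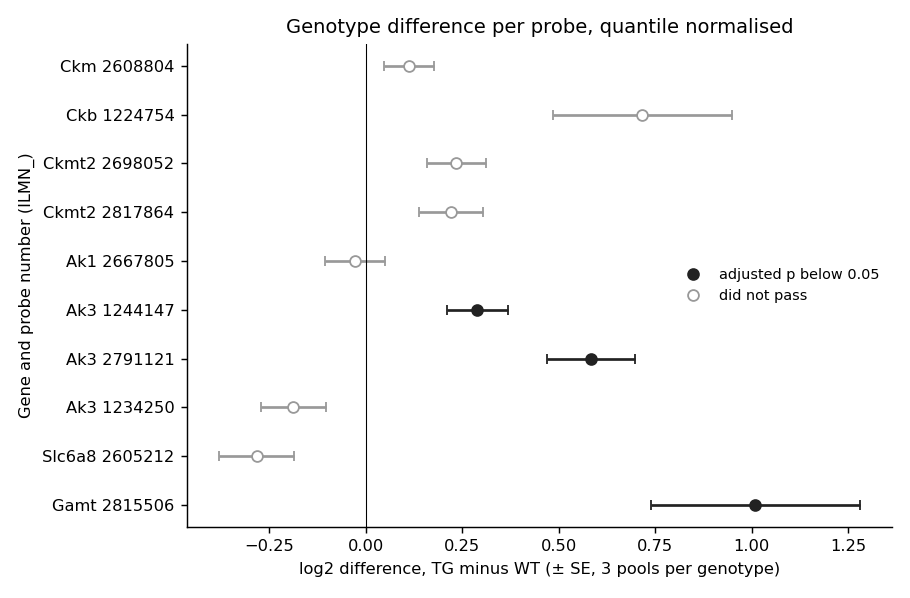
Log2 difference between TG and WT (± SE, 3 pools per genotype) of each kept probe after quantile normalisation. Filled points have an adjusted p below 0.05: Gamt at 1.01 and Ak3 at 0.58 and 0.29. Ckb at 0.72 has a wide error, and Slc6a8 at -0.28 and the dim Ak3 probe at -0.19 lie below 0.

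Each chip held all 6 pools and gave its own difference. Differences on chip 1 and chip 2 were 0.07 and 0.15 for Ckm, 0.20 and 0.27 for Ckmt2 ILMN_2698052, 0.23 and 0.21 for Ckmt2 ILMN_2817864, 0.54 and 0.63 for Ak3 ILMN_2791121, 0.36 and 0.21 for Ak3 ILMN_1244147 and -0.29 and -0.28 for Slc6a8. The difference between chips passed in limma at 0 of 15708 probes, with 893 at an unadjusted p under 0.05 and 0 of the member probes among those.

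Pearson's r of log2 values over the 12 arrays was 0.885 between the bright Ak3 probes and 0.805 between the Ckmt2 probes. Between genes it was highest for Ckb with Gamt (0.84), Gamt with Ak3 ILMN_2791121 (0.82) and Ckb with Ak3 ILMN_2791121 (0.801). Ckm gave 0.678 with Ak3 ILMN_2791121, 0.654 with Gamt and 0.641 with Ckmt2 ILMN_2698052. Ak1 lay between -0.566 (Ckb) and 0.266 (Ckmt2 ILMN_2817864) with the other probes. These are descriptions over arrays that share genotypes, pools and 2 chips. Among 9130 other genes, those most like Ckm were Arfrp1 (r = 0.898), Aph1b (0.896) and Pde10a (0.889). Those most like Ckb were Tgfb1 (0.967), Hmgn3 (0.965) and Cenpa (0.963), and the Ckb values were highest on the arrays of TG3.

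Partner genes of the kinases were taken from a list of 41 genes in 7 roles, of which 37 were on the array and 26 could be tested, each by the brightest of its kept probes. Of these, 4 rose, 8 fell and 14 did not pass, while 28% of all 9131 tested genes passed (12.1% higher and 15.9% lower). The median difference of the list was 0.06 and that of all genes was -0.02. Calls of Slc25a5, Nme5, Myom2 and Oat held under every alternative, the other 8 were lost under at least 1, and 0 turned sign.

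In mitochondrial nucleotide and phosphate exchange, 2 of 6 tested genes rose and 1 fell. The other 3 did not pass: Slc25a4 (0.15, limma adjusted p = 0.226), Slc25a3 (0.17, 0.108) and Vdac3 (0.17, 0.229). Slc25a5, which encodes an ADP/ATP carrier of the inner membrane, rose by 0.92 ± 0.11 (limma adjusted p = 0.00108). Its WT mean was 11.78 (log2), against 8.07 for the only probe of Slc25a4. Vdac2, a channel of the outer membrane, rose by 0.36 ± 0.07 (adjusted p = 0.00831), and its paralog Vdac1 fell by 0.28 ± 0.08 (adjusted p = 0.0449), a call that was lost in 16 of 20 alternatives, among them the fits without WT1, WT2, WT3, TG2 or TG3 (-0.21 to -0.30, adjusted p = 0.0722 to 0.149). Of the 2 kept Vdac1 probes 1 was called, at differences of -0.28 and -0.18. Of the myomesins, M-band proteins among which are anchors of the muscle creatine kinase, 2 of 3 rose. Myom2 was 0.44 ± 0.07 higher (adjusted p = 0.00511), Myom1 0.28 ± 0.07 higher (adjusted p = 0.0256), and Myom3 gave -0.15 (adjusted p = 0.195). The Myom1 call was lost in 9 of 20 alternatives, among them the fits without WT1, WT2, WT3 or TG2 (0.23 to 0.30, adjusted p = 0.054 to 0.0965). Both kept probes of Myom1 were called higher in the main fit, at 0.28 and 0.34.

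In the purine nucleotide cycle, which removes AMP in working muscle, 2 of 5 tested genes fell and 0 rose. The AMP deaminase Ampd1 fell by 0.31 ± 0.08 (limma adjusted p = 0.0242), and this was lost in 10 of 20 alternatives, among them the fits without WT2, WT3, TG1 or TG2 (-0.26 to -0.33, adjusted p = 0.0577 to 0.0979). Both of its 2 kept probes were called lower in the main fit, at -0.33 and -0.31. The muscle adenylosuccinate synthase Adss1, listed as Adssl1, fell by 0.22 ± 0.07 (adjusted p = 0.0484), and this was lost in 17 of 20, which reached -0.04, and whichever pool was left out (-0.19 to -0.24, adjusted p = 0.0665 to 0.165). These values are those of its brightest probe, the only one followed through the alternatives. In the main fit all 3 kept probes of Adss1 were called lower, at -0.59 to -0.22. Ampd3, which encodes another AMP deaminase, gave 0.56 (adjusted p = 0.0604) and did not pass.

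Of the genes listed around methyl groups and arginine, 2 of 3 tested fell. The other, Mat2b, did not pass on its brightest probe (0.18, limma adjusted p = 0.177), while 1 of its 3 kept probes did. Whether the supply of either substance changed was not tested. Oat, the ornithine aminotransferase, fell by 0.64 ± 0.09 (limma adjusted p = 0.00183), and Ahcy, which clears the homocysteine precursor left by methyltransferases such as Gamt, fell by 0.42 ± 0.09 (adjusted p = 0.0136; without WT1 -0.37, 0.0505, and without WT2 -0.42, 0.0533). Of the carriers, 2 of 3 tested fell: Slc16a9, a carnitine carrier related to the creatine carrier Slc16a12, by 0.67 ± 0.13 (adjusted p = 0.00862), and the glycine transporter Slc6a9 by 0.29 ± 0.08 (adjusted p = 0.0299). The Slc6a9 call was lost in 7 of 20 alternatives, among them the fits without WT2, WT3 or TG2 (-0.24 to -0.28, adjusted p = 0.0828 to 0.1). Among nucleoside diphosphate kinases 1 of 6 tested fell, Nme5, by 1.02 ± 0.09 (adjusted p = 0.000216). None of the 5 other adenylate kinase genes on the array was detected well enough to be tested.

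**Figure D5:**
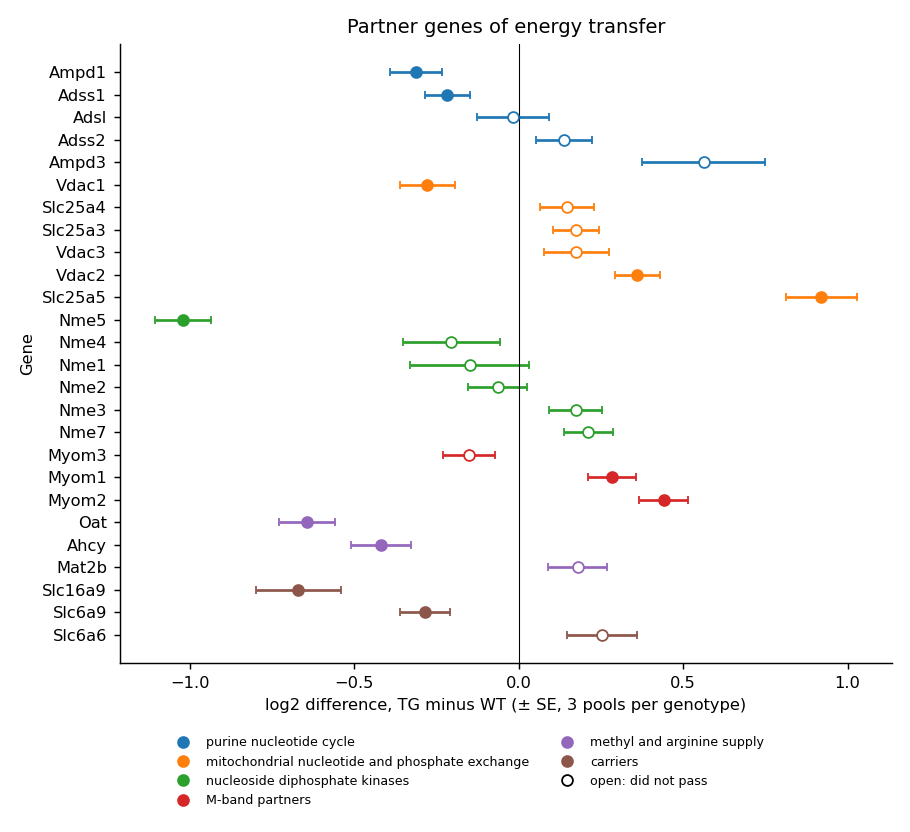
Log2 difference between TG and WT (± SE, 3 pools per genotype) of the 26 tested partner genes, coloured by role, with filled points for those with an adjusted p below 0.05. Slc25a5 at 0.92 is the highest of the genes that passed and Nme5 at -1.02 the lowest.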

How the data were processed

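Probe intensity values of 12 arrays were used as deposited, and the file headers call them non-normalized. They had nonetheless been background-subtracted and scaled before deposit: 29.3% to 32.8% of values per array were below 0, and every array mean was 472.135. The deposited detection p-value column rose with the signal (Spearman at least 0.975 on each array) and was read as 1 minus p. The authors' deposited table holds log2 values, which were rebuilt within 0.00109 as log2 of the floored signal minus the array's 75th percentile and the probe's median. It runs the same way as the signal, with column medians of -0.251 to 0.0935. The scanner software was not given in the sources used here.

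In limma 3.58.1 (R 4.3.3), signals were corrected with normexp (offset 50), which compresses dim differences, then quantile normalised and put on the log2 scale. Both arrays of each pool were averaged, and lmFit and eBayes (two-sided) compared 3 pools with 3 on all kept probes. The random block used statmod 1.5.0. The fit was checked on simulated data. The p-values set each difference against the spread between these pools, which eBayes moderated across all kept probes. Spread between single mice was not measured, and the number of pools limits the precision.

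Gene names came from the platform annotation and may be outdated: 34885 probes had 1 gene symbol, 18 several and 10378 none. The members and lists were chosen with earlier results of these data known. Named genes were all members, every partner gene that passed and the gene of each role with the smallest p, and the 3 genes most like Ckm and Ckb. Ampd3, Myom3, Mat2b, Slc25a4, Slc25a3 and Vdac3 were added after their values were seen. Promoter windows are RefSeq's (GRCm38.p6).

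Marker lists for other cell types gave the following counts. Smooth muscle had 1 of 4 tested genes higher (Smtn), endothelium 2 of 4 higher, fibroblasts 0 of 4, nerve 0 of 2, adipocytes 0 of 1, blood 0 of 2, regenerating fibres 1 of 3 higher, and myofibres 1 higher and 1 lower of 5. Alternatives covered background correction, scaling, filters, chips, the replicate block and single pools.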

Additional observations from a re-analysis of the deposited data

Results flagged for a closer look

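In 1 of 20 groups of 6 arrays, 1 array lay far from the others. For Ckm (ILMN_2608804) the chip 1 array of WT2 gave a log2 value of 15.63 after quantile normalisation, while the other 5 WT arrays lay between 15.46 and 15.52. The gap was 0.633 of the whole range, against a critical value of 0.625 for 6 arrays. Chance gives about 1 in 20 such groups. The deposited signal of that array was 46548, and the other WT arrays gave 45133, 45064, 44518, 43916 and 37105, lowest on chip 1 of WT1. After quantile normalisation the value follows the rank, which was 4 on the flagged array and 24 to 35 on the others. In deposited signal the flagged array did not stand far apart. The fit without WT2 is among those summarised for Ckm.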

How the results depend on the processing

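Over all kept probes 4060 passed. The count was 1457 on chip 2 alone, 3491 on chip 1 alone and 2062 to 4220 when 1 pool was left out, lowest without WT2 and highest without TG3. By scaling, the count of higher calls was 1771 of 4060 under quantile normalisation, 1453 of 4337 under the 75th percentile, 2084 of 4076 under cyclic loess, 1375 of 4598 under equal means and 1181 of 3022 in the authors' deposited table. Of the member probes 3 passed. The count was 1 with signals floored at 10 and on chip 2 alone, 5 under the 75th percentile, under loess and with WT1 from chip 1 only, 6 with 12 arrays and the pool as a random block and under equal means (added after seeing the data), and 1 to 4 when 1 pool was left out, at 1 without WT1, WT2 or WT3. Of the partner genes 12 passed, 5 on chip 2 alone and 6 to 13 when 1 pool was left out (6 without WT2, 7 without WT3 or TG2). Chip 1 alone gave 4 member probes and 8 partner genes. The cause of these shifts was not tested. Under the alternatives 160 values of member probes kept direction and side of the threshold, 18 lost the call, 20 gained it and 1 turned sign, Ak1 at 0.015 without WT3, where leaving out 1 pool gave -0.077 to 0.015. Ckm ranged from 0.07 to 0.35. Deviations of the pools of the same number in WT and TG had r of -0.417, 0.343 and -0.118. Deviations from a mean of 3 pools depend on each other, so these values do not settle whether the numbers pair the pools. With the number as a replicate block 3101 probes passed, and Ak3 ILMN_1244147 had an adjusted p of 0.0538. The dim probes of Ckmt1 and Gatm limit what can be said of those genes.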
